A study of Mus musculus with 860 samples.

Results

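The genes followed here are 10 immediate early genes, Fos, Fosb, Jun, Junb, Atf3, Egr1, Nr4a1, Ier2, Ier3 and Zfp36, in single cells of the aorta-gonad-mesonephros region (AGM) of mouse embryos. They were chosen by name, with earlier results of these data known, and they are 10 of the 46078 genes in the count table. All 10 had a row, and all reached at least 10 CPM (the count of a gene over the total count, scaled to a common sum) in each group and batch compared. Hemogenic endothelium (HE) is the flat layer of endothelial cells that turns into blood, and the intra-aortic hematopoietic clusters (IAHC) are the round cells that bud from it and hold the first hematopoietic stem cells. Cells were sorted from embryos of a line labelled CD1/Gf1+, which carries the Gfi1:tomato reporter of Gfi1, and all groups share this reporter. No treatment was given. The groups were E11.5 GFI1+ HE (CD31+, cKIT-, reporter positive; 110 cells in batch GL53, 19 in GL58 and 40 in GL78), E11.5 GFI1+ IAHC (CD31+, cKIT+, reporter positive; 240 cells, 30 of them in GL58 and 89 in GL78), E11.5 GFI1- IAHC (CD31+, cKIT+, reporter negative; 82 cells in GL53 and 43 in GL78), E10.5 GFI1+ HE (18 cells in GL58 and 90 in GL78) and E10.5 GFI1+ IAHC (29 cells in GL69 and 86 in GL78). A further 3 cells were E10.5 GFI1- IAHC and entered no comparison. Each cell gave a Smart-Seq2 library, a full-length method that keeps no molecular identifiers and does not mark the strand. Embryos were pooled before sorting and no label ties a cell to an embryo, so each group counts as 1 sample. No test was therefore possible, and intervals cover counting error only.

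The 760 cells used had 134284 to 2296823 counts each, with a median of 728931, and a median of 7471 genes detected. The labels assign them to 4 batches, and ratios between groups were taken within a batch. None of the 15 combinations of batch and plate held both stages (0 of 15), so stage and plate cannot be told apart. In 15 cases 2 libraries were taken to come from the same cell. Their r was 0.977 to 0.99 over genes of higher level, against at most 0.716 for any other pair. For these cells the deeper library was used. In 8 of the 15 cases, all E11.5 GFI1- IAHC, the annotation gave the libraries different wells, so some well labels may be wrong, and values tied to a well depend on them. The 14 endothelial markers were all at 10 CPM or more in every group and batch. Gfi1 RNA was at 0 in 5 of the 12 combinations of group and batch, E11.5 GFI1+ HE of GL53 and GL58 and E11.5 GFI1+ IAHC of GL58 among them, although both groups were sorted on the reporter of this gene.

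Immediate early genes are transcribed within minutes of a stimulus without new protein synthesis, because the factors that switch them on are already in the nucleus. Growth factor signals reach them mainly through the ERK kinases and serum response factor (SRF), which binds the CArG box, and through CREB, which binds cyclic AMP response elements built on the letters TGACG. FOS and JUN proteins pair to form AP-1, which binds TGANTCA, and EGR1 binds GCGNGGGCG. The messengers are short lived, and tissue dissociation is itself known to induce them. In blood development AP-1 is known as a factor of hemogenic endothelium in differentiating embryonic stem cells.

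The 250 bases upstream of the genes were searched for these elements. Sequence outside this window was not searched, so a gene without a match may still carry the element elsewhere. RefSeq windows of GRCm38.p6 were searched for 8 of the 10 genes. No window of Egr1 or Ier2 was searched, so the counts of motifs leave these 2 genes open. In the 250 bases before the RefSeq start, TGACG on either strand was found in 5 of the 8 (4 matches in Nr4a1, 2 in Fos and 1 each in Fosb, Junb and Atf3). It was found in 17.8% of the 32851 windows of this length that were searched. The CArG box was found in 1 of the 8, Zfp36, against 1.47% of windows. GCGNGGGCG was found in 3 of the 8, Fosb, Nr4a1 and Zfp36, against 4.70% of windows, and TGANTCA in 0 of the 8, against 6.75% of windows. No motif overlapped another in these windows. A match is a run of letters and was not tested as a binding site. The windows of Fos, Nr4a1 and Junb are shown as those with TGACG and a high level or a wide range between cells, and that of Zfp36 for its CArG box. Capitals mark TGACG, or its reverse complement where it lies on the other strand, and, in Zfp36, the CArG box. They lie at chr12:85473640-85473889 (plus strand, Fos), chr15:101266596-101266845 (plus strand, Nr4a1), chr8:84978749-84978998 (minus strand, Junb) and chr7:28379229-28379478 (minus strand, Zfp36).
Fos: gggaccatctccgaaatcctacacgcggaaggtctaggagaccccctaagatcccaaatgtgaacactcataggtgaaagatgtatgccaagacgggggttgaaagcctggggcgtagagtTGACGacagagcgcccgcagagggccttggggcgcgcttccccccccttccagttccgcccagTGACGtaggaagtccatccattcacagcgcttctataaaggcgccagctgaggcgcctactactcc
Nr4a1: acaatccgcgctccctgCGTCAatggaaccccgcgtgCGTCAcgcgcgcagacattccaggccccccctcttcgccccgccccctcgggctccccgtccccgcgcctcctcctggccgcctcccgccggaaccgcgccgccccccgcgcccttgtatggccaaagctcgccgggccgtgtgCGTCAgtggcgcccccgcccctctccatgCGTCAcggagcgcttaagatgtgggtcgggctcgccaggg
Junb: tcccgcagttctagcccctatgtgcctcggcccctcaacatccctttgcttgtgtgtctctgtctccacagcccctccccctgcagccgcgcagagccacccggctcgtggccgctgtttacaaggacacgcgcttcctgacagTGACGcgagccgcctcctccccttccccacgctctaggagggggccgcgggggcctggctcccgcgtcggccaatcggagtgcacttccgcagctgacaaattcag
Zfp36: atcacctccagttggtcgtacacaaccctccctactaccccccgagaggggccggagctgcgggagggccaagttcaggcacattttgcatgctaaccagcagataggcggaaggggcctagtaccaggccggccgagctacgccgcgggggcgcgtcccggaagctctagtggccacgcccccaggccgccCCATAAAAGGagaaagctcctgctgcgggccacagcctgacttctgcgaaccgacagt

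The nearer TGACG run of Fos starts 66 bases before the start of transcription and the CArG box of Zfp36 58 bases before it. The windows of Nr4a1 and Zfp36 lie inside the annotated span of their genes, since longer transcripts begin further upstream.

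The genes differed widely in level, and levels are given as CPM of the summed counts of a group in a batch. They are not corrected for transcript length, so genes are compared here with themselves only. Fos, the FOS subunit of AP-1, had 422, 402 and 723 CPM in E11.5 GFI1+ HE of GL53, GL58 and GL78, and 688, 900 and 1305 CPM in E11.5 GFI1+ IAHC of the same batches. It had 923 and 1558 CPM in E11.5 GFI1- IAHC of GL53 and GL78. At E10.5 it had 279.1 and 230.9 CPM in GFI1+ HE of GL58 and GL78, and 279.3 and 341.5 CPM in GFI1+ IAHC of GL69 and GL78. Thus E11.5 GFI1- IAHC were highest for Fos and E10.5 GFI1+ HE lowest. The ranges over batches of neighbouring groups in that order overlapped among the 3 E11.5 groups, and the 2 E10.5 groups almost touched, while every E11.5 value lay above every E10.5 value. Between batches of a group Fos differed by up to 1.9-fold, GL78 being the highest batch of each E11.5 group.

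**Figure D1:**
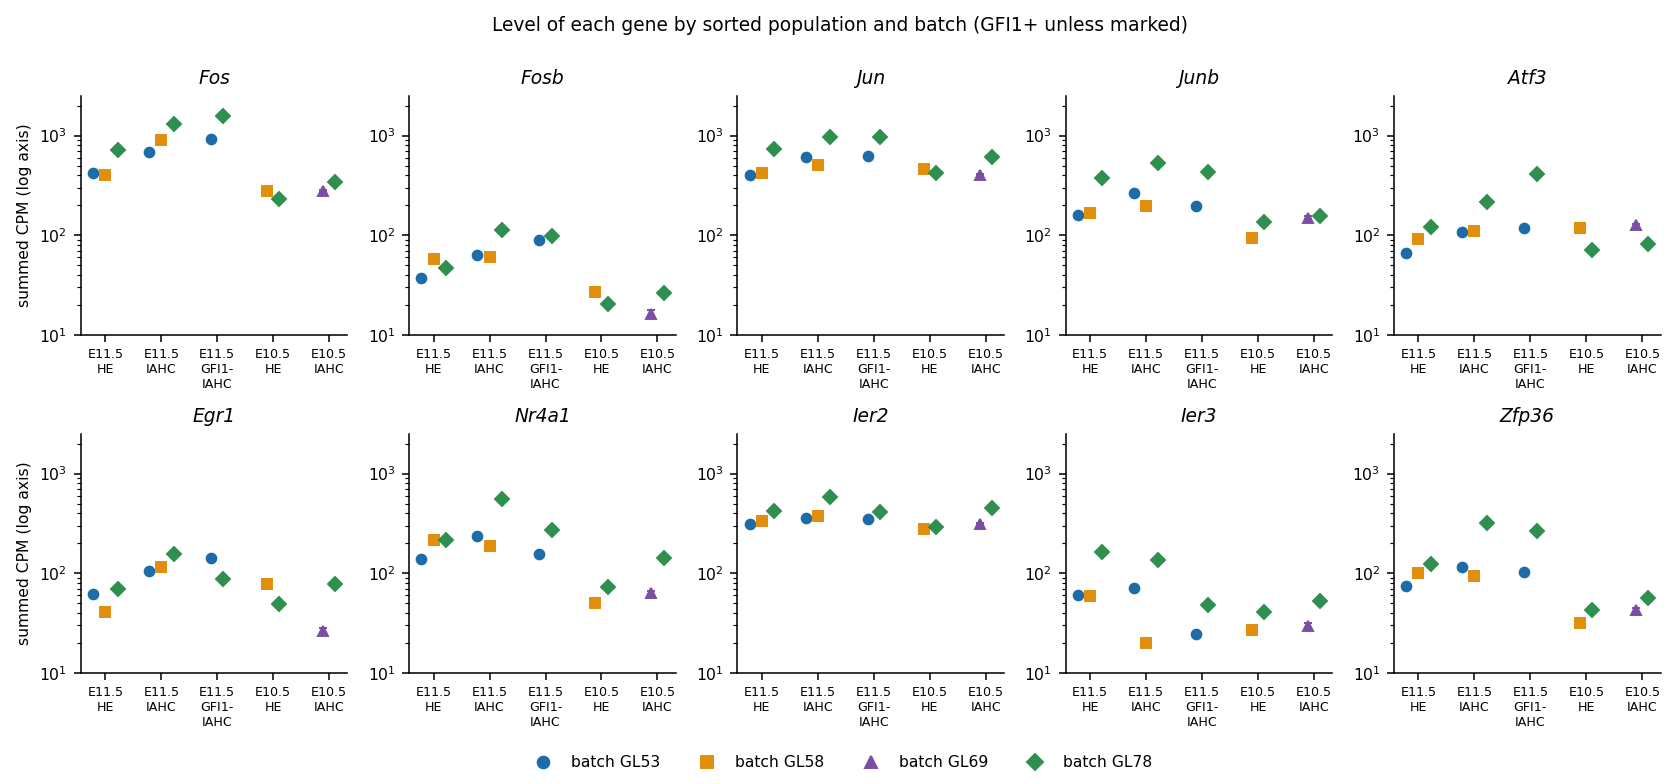
Level of each of the 10 genes as CPM of the summed counts on a log axis, by sorted population on the horizontal axis, with 1 point for each batch and, where visible, the 95% Poisson interval of the count. E11.5 populations stand left of E10.5 populations, and Fos, Fosb, Nr4a1 and Zfp36 are each lower in both E10.5 populations than in the E11.5 populations of GL78.

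Fosb, the second FOS subunit, had 37.4, 57.4 and 47.1 CPM in E11.5 GFI1+ HE and 63.5, 59.8 and 113.8 CPM in E11.5 GFI1+ IAHC of GL53, GL58 and GL78. It had 26.8 and 20.2 CPM in E10.5 GFI1+ HE of GL58 and GL78, and 15.996 and 26.3 CPM in E10.5 GFI1+ IAHC of GL69 and GL78. The E11.5 and E10.5 ranges did not overlap. Jun, the founding JUN subunit, varied less, between 399 and 966 CPM over all 12 combinations of group and batch, and its E11.5 and E10.5 ranges overlapped. Junb, the JUN subunit that often opposes Jun, had 158.9, 167.4 and 372.8 CPM in E11.5 GFI1+ HE, 262.8, 198.2 and 526.5 CPM in E11.5 GFI1+ IAHC, and 93.02 to 155.6 CPM in the E10.5 groups. Atf3, a stress-induced partner of JUN proteins that can repress transcription, had its highest level, 412 CPM, in E11.5 GFI1- IAHC of GL78 and its lowest, 65.8 CPM, in E11.5 GFI1+ HE of GL53.

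Egr1, a zinc finger factor of growth factor signalling, had 61.6, 40.8 and 68.7 CPM in E11.5 GFI1+ HE and 103.8, 115.02 and 153.8 CPM in E11.5 GFI1+ IAHC of GL53, GL58 and GL78. All HE values lay below all IAHC values for this gene at E11.5. Nr4a1, an orphan nuclear receptor also called Nur77, had 139.1, 217.05 and 215.4 CPM in E11.5 GFI1+ HE and 234.8, 187.8 and 560.1 CPM in E11.5 GFI1+ IAHC. It had 50.7 and 72.5 CPM in E10.5 GFI1+ HE of GL58 and GL78, and 62.7 and 142.4 CPM in E10.5 GFI1+ IAHC of GL69 and GL78. The lowest E11.5 value of Nr4a1 lay just below the highest E10.5 value, and the ranges otherwise kept apart. Zfp36, which encodes tristetraprolin, a protein that binds AU-rich elements and speeds the decay of messengers including many immediate early ones, had 73.9 to 316.3 CPM in the E11.5 groups and 31.5 to 55.7 CPM in the E10.5 groups, without overlap.

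Ier2, a small nuclear protein with a role in transcription, was the steadiest, between 279.01 and 578.5 CPM over all groups and batches. Ier3, an early response gene tied to survival and ERK signalling, was uneven within E11.5. It had 60.3, 59.01 and 162.8 CPM in E11.5 GFI1+ HE, 71.01, 19.9 and 134.8 CPM in E11.5 GFI1+ IAHC, and 24.4 and 48.3 CPM in E11.5 GFI1- IAHC. Reads of Jun, Junb, Atf3 and Zfp36 lie where Junos, Prdx2, Gm24748 and Gm44710 are also annotated, and without strand the reads of such overlaps cannot be told apart.

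The first comparison asked whether the genes differ between HE and the IAHC that arise from it. At E11.5, 9 of the 10 genes were lower in GFI1+ HE than in GFI1+ IAHC as the mean over 3 batches (59.8% of genes were), with a median log2 ratio of -0.61 against -0.08 over 9909 genes. In all 3 batches 7 of the 10 were lower (25.4% of genes were). By the rule of a 2-fold difference in every batch, 0 of the 10 were lower (0.918% of genes were) and 0 were higher (0.908% of genes were). Egr1 had the lowest ratio, -1.12 ± 0.37 (SD over 3 batches, as for the ratios that follow), with -0.74 in GL53, -1.47 in GL58 and -1.15 in GL78. For Fos it was -0.91 ± 0.23, and -0.71, -1.16 and -0.85 by batch. No other gene of the 10 had a lower mean ratio than these. The megakaryocyte and platelet list summed to 2889 CPM in E11.5 HE of GL78 and 230 CPM in E11.5 IAHC of GL78, and to 17 CPM in HE without the 1 cell of clusters 6 to 10. Without clusters 6 to 10 the median of the 10 genes was -0.76. As the mean over batches, other lists were lower in E11.5 HE than in IAHC, as the 10 genes were. Of 7 primordial germ cell genes at 10 CPM or more 6 were lower (median -3.09), and 5, Dppa3, Pou5f1, Nanog, Tfap2c and Dnd1, by 2-fold or more in every batch. All 7 macrophage genes (-1.81) and all 8 lymphatic and venous endothelial genes (-0.77) at that level were lower, while all 14 endothelial markers were higher (0.55). In GL58, however, the macrophage list summed to 202.8 CPM in HE and 114.5 CPM in IAHC. Of 11 hematopoietic genes at that level 9 were lower (-1.20), with medians by batch from -1.86 to 0.42. The part of these lists in the ratios was not tested.

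The other AP-1 genes were lower in HE by smaller amounts, with -0.69 ± 0.60 for Fosb, -0.59 ± 0.28 for Atf3, -0.49 ± 0.24 for Junb and -0.43 ± 0.17 for Jun. Nr4a1 and Zfp36 differed in sign between batches. The ratio of Nr4a1 was -0.75 in GL53, 0.21 in GL58 and -1.38 in GL78, and that of Zfp36 was -0.64, 0.09 and -1.35, so for both genes the mean over batches (-0.64 ± 0.80 and -0.63 ± 0.72) is smaller than its SD. Without clusters 6 to 10 Nr4a1 and Zfp36 were lower in HE in all 3 batches. In GL58 Nr4a1 then had 217.05 CPM in HE and 255.8 CPM in IAHC, and Zfp36 99.98 and 127.5 CPM. Ier3 was the exception to the direction, at 0.52 ± 0.90, with -0.23, 1.52 and 0.27 by batch. Ier2 was at -0.28 ± 0.14, and its percentile among all genes was 28.1, against 3.07 for Egr1 and 4.52 for Fos.

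Lists around these genes were set beside them by their median log2 ratios. Of 13 other immediate early transcription factors measured at 10 CPM or more, 11 were lower in E11.5 HE, with a median of -0.46. The nuclear receptor gene Nr4a2 had 13.1 CPM in HE and 42.3 CPM in IAHC (mean over batches, -1.55), and Csrnp1, a gene of a cysteine- and serine-rich nuclear protein, 11.1 and 26.2 CPM (-1.41). Of 24 other immediate early genes, 20 were lower in HE, with a median of -0.21, and 1, the small GTPase gene Gem (61.2 CPM in HE and 143.8 CPM in IAHC), was lower by 2-fold or more in every batch. SRF with the ternary complex factors (5 genes, median 0.02) and CREB and ATF factors (8 genes, -0.03) had medians near 0, and MAP kinases with their kinases were at -0.17 (9 of 14 lower in HE). The 10 genes of ERK feedback had a median of -0.28, with the ETS factor Etv5 at 13.9 CPM in HE and 43.99 CPM in IAHC. Heat shock genes, which respond to stress in sorted cells, had a median of -0.26, and 11 of 14 were lower in HE. These lists were chosen with earlier results of these data known.

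**Figure D2:**
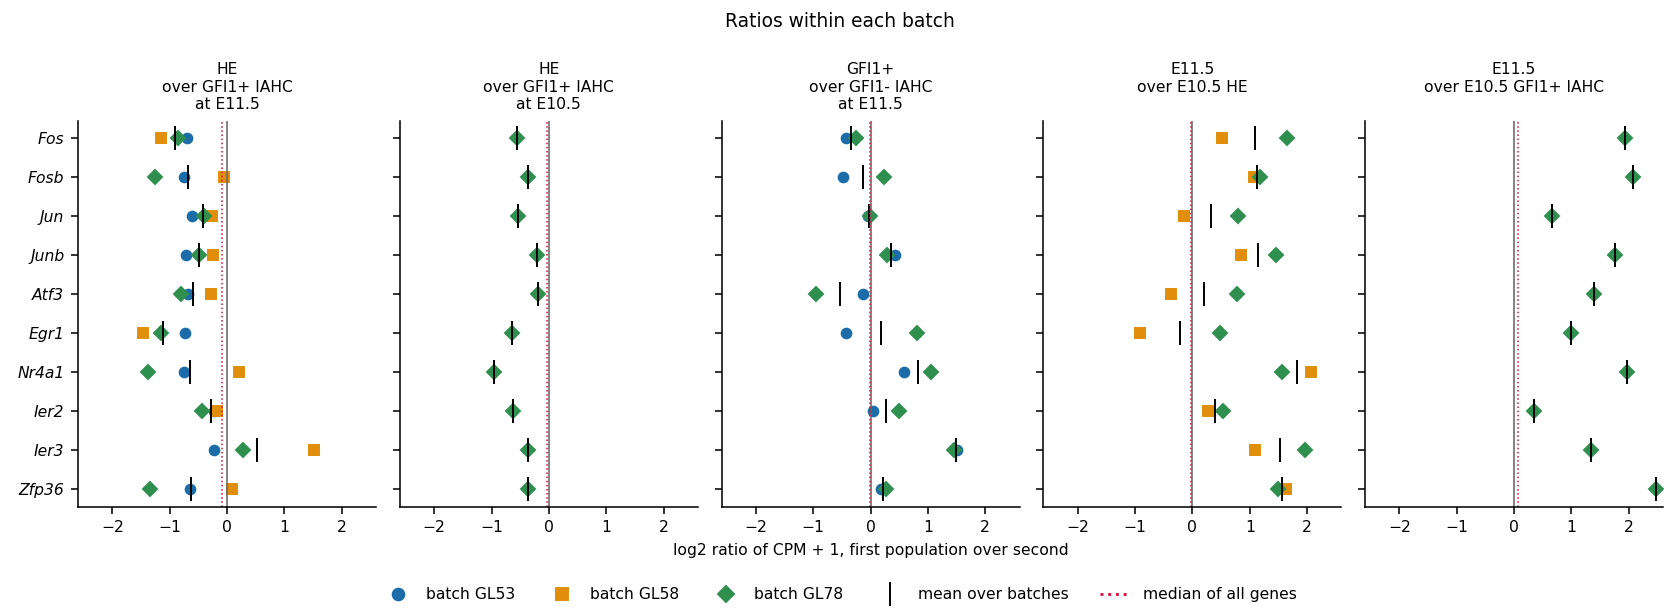
Log2 ratio of CPM + 1 of each gene in each of the 5 comparisons, with 1 point for each batch, a black tick for the mean over batches and a dotted red line for the median of all genes. In the comparisons of HE over IAHC most points lie left of 0, and in those of E11.5 over E10.5 most lie right of it, up to 2.48 for Zfp36 in GFI1+ IAHC.

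At E10.5 the comparison could be made in GL78 only. All 10 genes were lower in GFI1+ HE than in GFI1+ IAHC, where 52.5% of genes were, and the median log2 ratio was -0.45 against -0.03 over 9567 genes. Of the 10, 0 were 2-fold lower (1.98% of genes were) and 0 were 2-fold higher (5.40% of genes were). Nr4a1 had the lowest ratio, with 72.5 CPM in HE and 142.4 CPM in IAHC (-0.96), followed by Egr1 with 49.0 and 77.1 CPM (-0.64), Ier2 with 292.02 and 453.5 CPM (-0.63) and Fos with 230.9 and 341.5 CPM (-0.56). The megakaryocyte and platelet list moved with this comparison, at 3549 CPM in HE and 162.8 CPM in IAHC, and all 10 of its genes were 2-fold higher in HE, as were the 5 erythroid genes at 10 CPM or more. Without the authors' clusters 6 to 10 the megakaryocyte and platelet list summed to 66.6 CPM in HE and 170 CPM in IAHC. The erythroid list summed to 668.4 CPM in HE and 23.06 CPM in IAHC with those clusters, and still to 472.4 CPM in HE and 24.6 CPM in IAHC without them. The part of both lists in the ratios was not tested. Without them the median log2 ratio of the 10 genes was -0.76, and 4, Fosb, Egr1, Nr4a1 and Zfp36, were 2-fold lower in HE (2.7% of genes were). Egr1 itself fell to 25.2 CPM in E10.5 HE without clusters 6 to 10, against 49.0 CPM with them. With cells in G1 alone the median of the 10 genes was -0.06, against -0.06 over all genes. Fosb (0.60), Junb (0.355), Ier3 (0.69) and Zfp36 (0.04) were then higher in HE, and the other genes stayed lower. The lower level in HE as a set was therefore not seen in the summed counts of G1 cells. For each G1 cell the mean over the 10 genes of log2(CPM + 1) was taken too. Its median was still lower in HE, at 4.59 against 4.88 in IAHC. The G1 cells included those of clusters 6 to 10, and G1 cells without these clusters were not compared.

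Within a cluster of the authors, HE and IAHC could be compared in 4 cases with at least 10 cells each. Shares of all genes were not taken within clusters, so medians over all genes stand beside those of the 10. In cluster 1 of GL53 all 10 genes were lower in E11.5 HE (42 cells) than in E11.5 IAHC (20 cells). The median log2 ratio was -1.04, against -0.01 over all genes. In cluster 0 of GL78 all 10 were lower (11 and 41 cells, -1.26 against -0.09). In cluster 3 of GL53 only 5 of 10 were lower (14 and 19 cells, -0.13 against -0.02), and Fos was at 0.74 there. In cluster 3 of GL78 at E10.5, 8 of 10 were lower (19 and 12 cells, -0.37 against -0.01). The lower level in HE was thus present in the clusters 0 and 1 compared here and was small or mixed in cluster 3.

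The second comparison set the reporter-positive IAHC, which hold the stem cell activity, against reporter-negative IAHC at E11.5. Here the 10 genes did not move together. In GL53 and GL78, 5 were higher in GFI1+ IAHC in both batches (26% of genes were), 3 were lower in both (29.2% of genes were), and the median log2 ratio was 0.20 against -0.02 over 10345 genes. Ier3 alone was 2-fold higher in both batches (0.483% of genes were), with 71.01 and 134.8 CPM in GFI1+ IAHC against 24.4 and 48.3 CPM in GFI1- IAHC, a ratio of 1.48 ± 0.03 (SD over 2 batches). With all 860 libraries, those the authors left out included, the ratio of Ier3 was 0.86 and it was not 2-fold higher in both batches, and Atf3 was 2-fold lower in both (-1.19, and 2.87% of genes were). None of the 10 was 2-fold lower (0 of 10, and 1.74% of genes were). In single cells Ier3 had a read in 43.8% (95% exact binomial interval 34.8 to 53.1%) of GFI1+ IAHC and 24.4% (15.6 to 35.1%) of GFI1- IAHC of GL53, and in 51.7% and 39.5% of those of GL78.

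Nr4a1 was at 0.82 ± 0.34, with 234.8 and 560.1 CPM in GFI1+ IAHC against 156.6 and 268.1 CPM in GFI1- IAHC. Junb was at 0.36 ± 0.09, and Jun was close to even at -0.02 ± 0.03. Fos was lower in GFI1+ IAHC in both batches, at -0.34 ± 0.12, and Atf3 was at -0.54 ± 0.57, with 213.3 CPM against 412 CPM in GL78. Egr1 reversed between batches, at -0.43 in GL53 and 0.81 in GL78. Without clusters 6 to 10 Egr1 was higher in GFI1+ IAHC in both, with 110.1 and 154.3 CPM against 48.3 and 95.4 CPM. Fos and Atf3 stayed lower in GFI1+ IAHC in both batches without those clusters. In GL53, 29 of the 82 GFI1- IAHC were in cluster 6, which had 321.4 CPM of Egr1 and 1131 CPM of Fos, but 9.6 CPM of Ier3 and 23.97 CPM of Atf3. Cluster 6 was thus the group of cells with the highest Egr1 in GL53, with an Egr1 read in 93.1% of its GFI1- IAHC. The macrophage list summed to 167.5 and 330.4 CPM in GFI1+ IAHC and 483 and 1069 CPM in GFI1- IAHC, with 7 of its 10 genes 2-fold lower in GFI1+ IAHC and none at 0, and all 10 mesenchyme and mural genes at 10 CPM or more were lower there as the mean over batches. That list summed to 57.4 CPM in GFI1+ IAHC and 3617 CPM in GFI1- IAHC of GL53, and to 38.7 and 66.3 CPM in those of GL78, where the median ratio of its genes was 0.54. The part of both lists in these ratios was not tested. Within cluster 0, 8 of the 10 genes were higher in GFI1+ IAHC than in GFI1- IAHC, both in GL53 (40 and 21 cells, median log2 ratio 0.44) and in GL78 (41 and 12 cells, 0.20), and within cluster 3 of GL53 4 of 10 were (19 and 10 cells, -0.21). The medians over all genes were 0.003, 0.009 and -0.003 in that order.

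The third comparison was between stages. In GFI1+ HE, 9 of the 10 genes were higher at E11.5 than at E10.5 as the mean of GL58 and GL78 (48.5% of genes were), with a median log2 ratio of 1.11 against -0.02 over 9795 genes. By the 2-fold rule, 4 were higher in both batches, Fosb, Nr4a1, Ier3 and Zfp36 (2.54% of genes were), and 0 were lower (1.98% of genes were). Nr4a1 had 217.05 and 215.4 CPM at E11.5 against 50.7 and 72.5 CPM at E10.5 (1.82 ± 0.37, SD over 2 batches). For Zfp36 the levels were 99.98 and 123.3 CPM at E11.5 against 31.5 and 42.9 CPM at E10.5 (1.57 ± 0.10), and for Ier3 59.01 and 162.8 CPM against 27.01 and 40.96 CPM (1.53 ± 0.61). Fos was higher by 0.53 in GL58 and 1.64 in GL78, and Junb by 0.84 and 1.46. Jun, Atf3 and Egr1 had opposite signs in the 2 batches, with -0.92 for Egr1 in GL58 and 0.48 in GL78. Other lists moved with stage in HE. At E11.5 all 10 megakaryocyte and platelet genes (median -2.68) and all 5 erythroid genes at 10 CPM or more (-2.30) were lower, and all 14 endothelial markers (0.67) and 7 of 7 lymphatic and venous endothelial genes (0.72) were higher. Itga2b, Gfi1, Gfi1b and Runx1 of the hematopoietic list were 2-fold lower at E11.5 in both batches. The part of these lists in the stage difference was not tested.

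This difference in HE rested in part on a few cells. GL58 held 19 E11.5 and 18 E10.5 HE cells. Without the 3 highest cells of each group and batch, only Nr4a1 was 2-fold higher in both batches (2.18% of genes were), and the median log2 ratio was 0.70. For a typical cell the mean over the 10 genes of log2(CPM + 1), called the mean level below, had a median of 4.12 in E11.5 HE and 4.55 in E10.5 HE of GL58, the other way round from the summed counts, and of 4.92 and 4.25 in GL78. Clusters 6 to 10 also bore on it. Without them Egr1 was at 40.8 and 70.6 CPM in E11.5 HE against 14.3 and 25.2 CPM in E10.5 HE, a ratio of 1.45 in place of -0.22, and Zfp36 was at 2.19 in place of 1.57. Then 5 genes, Fosb, Junb, Egr1, Nr4a1 and Zfp36, were 2-fold higher in both batches (2.57% of genes were). Ier3 was no longer among them, with 59.01 CPM at E11.5 against 31.3 CPM at E10.5 in GL58. On the 2 plates that gave the E11.5 HE of GL78, Fos had 791 CPM (25 cells) and 619 CPM (15 cells), both above the 230.9 CPM of E10.5.

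In GFI1+ IAHC the stages could be compared in GL78, and the difference was wider. All 10 genes were higher at E11.5 (54.6% of genes were), with a median log2 ratio of 1.57 against 0.07 over 9791 genes. The 2-fold rule was passed by 7 genes, Fos, Fosb, Junb, Atf3, Nr4a1, Ier3 and Zfp36 (8.78% of genes were), and 0 were lower (2.51% of genes were). Zfp36 had 316.3 CPM at E11.5 against 55.7 CPM at E10.5 (2.48), Fosb 113.8 against 26.3 CPM (2.07), Nr4a1 560.1 against 142.4 CPM (1.97), and Fos 1305 against 341.5 CPM (1.93). Jun (0.66) and Ier2 (0.35) differed least, and Egr1 stood just under 2-fold at 0.99. E10.5 GFI1+ IAHC of GL69, from another plate, had 279.3 CPM of Fos, 42.5 CPM of Zfp36 and 62.7 CPM of Nr4a1, below every E11.5 GFI1+ IAHC value of those genes in the other batches. This did not hold for Atf3, at 126.03 CPM in GL69 against 106.8 and 110.6 CPM at E11.5 in GL53 and GL58. Nor did it hold for Ier3, at 29.2 CPM against 19.9 CPM in GL58. The median of the mean level was 5.47 in GL69, against 5.33, 5.52 and 6.54 at E11.5 in GL53, GL58 and GL78. The E11.5 GFI1+ IAHC of GL53 had 688 CPM of Fos, 116.1 CPM of Zfp36 and 234.8 CPM of Nr4a1, between the E10.5 and E11.5 values of GL78.

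Other immediate early genes were higher at E11.5 in the same cells. Of 13 other immediate early transcription factors, 9 were 2-fold higher in E11.5 GFI1+ IAHC, with a median log2 ratio of 1.30. Klf4, a Krüppel-like factor, had 103.9 CPM at E11.5 and 7.46 CPM at E10.5, and Nr4a2 64.03 and 10.3 CPM, while Myc was even at 213.6 and 213.3 CPM. Of 25 other immediate early genes, 15 were 2-fold higher (median 1.22), among them Nfkbia, the inhibitor of NF-kappaB, at 827.4 and 183.9 CPM, and the antiproliferative gene Btg1 at 254.8 and 51.1 CPM. ERK feedback genes had a median of 0.50 with 1 of 10 2-fold higher, and the heat shock list stood at -0.18, with the mitochondrial chaperone gene Hspd1 at 320 CPM at E11.5 and 650 CPM at E10.5. In HE the same 2 lists of immediate early genes had smaller medians, 0.33 and 0.50. Other gene lists moved with stage in IAHC too. The macrophage list summed to 330.4 CPM at E11.5 and 106.98 CPM at E10.5, where C1qa, C1qb and C1qc were at 0, and 7 of its 9 genes at 10 CPM or more were 2-fold higher at E11.5. Of the lymphatic and venous endothelial list, 7 of 8 were 2-fold higher. Their part in the stage difference was not tested.

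The stage difference held inside the clusters that could be compared. In cluster 0 of GL78 all 10 genes were higher in E11.5 GFI1+ IAHC (41 cells) than in E10.5 GFI1+ IAHC (12 cells), with a median log2 ratio of 1.53, and in cluster 2 all 10 were higher (15 and 36 cells, 2.55). The medians over all genes were 0.06 in cluster 0 and 0.002 in cluster 2. Zfp36 had 243.6 CPM at E11.5 against 51.1 CPM at E10.5 in cluster 0, and 1060 against 80.1 CPM in cluster 2. In cluster 2 Nr4a1 had 2164 CPM at E11.5 against 241.8 CPM at E10.5. The 3 E10.5 GFI1- IAHC held 606 counts of Fos (260 CPM) and 0 counts of Ier3, which allows a level of up to 3 counts in 2326823.

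The sum over a group hides how the genes were spread over its cells. The mean level of a cell was 0 in the lowest cells, in which no read of any of the 10 genes was found, and reached 10.47 in the highest, an E11.5 HE cell of GL78. Its medians were 3.89, 4.12 and 4.92 in E11.5 GFI1+ HE and 5.33, 5.52 and 6.54 in E11.5 GFI1+ IAHC of GL53, GL58 and GL78. They were 4.88 and 5.69 in E11.5 GFI1- IAHC of GL53 and GL78, 4.55 and 4.25 in E10.5 GFI1+ HE of GL58 and GL78, and 5.47 and 5.06 in E10.5 GFI1+ IAHC of GL69 and GL78. HE cells were therefore lower than IAHC of the same batch and stage in each of the 4 pairs, while the ranges of cells overlapped almost wholly. A read of all 10 genes was found in 6.36% of E11.5 HE and 13.2% of E11.5 GFI1+ IAHC of GL53, and reads of 3 genes or fewer in 17.3% and 8.26%. Thinned to 100000 counts a cell, the last shares were 19.1% and 11.6%.

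**Figure D3:**
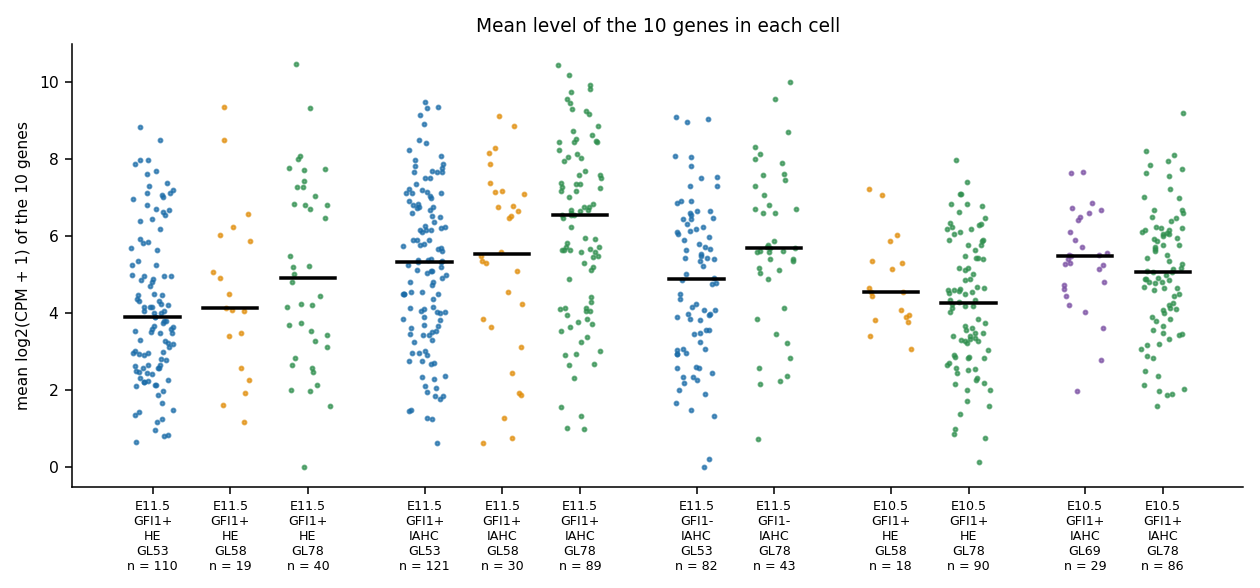
Mean level of the 10 genes in each cell (mean of log2(CPM + 1), vertical axis) by population and batch, with 1 point for each cell and a black bar at the median. The HE medians of 3.89, 4.12 and 4.92 at E11.5 lie below the GFI1+ IAHC medians of 5.33, 5.52 and 6.54 in the same batches, and the cells of all groups overlap.

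By cluster the median of the mean level was lowest in cluster 4 among HE, but single genes differed in direction. The authors made these clusters from the expression of the same cells, so the levels are a description. In E11.5 HE of GL53 the median was 2.80 in cluster 4 (31 cells), against 4.46 in cluster 1 (42 cells), 3.70 in cluster 3 and 4.95 in cluster 5. Fos had 176.5 CPM in cluster 4 and 455 CPM in cluster 1, and Atf3 11.03 and 58.7 CPM, but Egr1 had 79.7 and 54.5 CPM and Ier3 92.7 and 40.1 CPM. In E10.5 HE of GL78 the medians were 3.23 in cluster 4 (25 cells) and 4.27 in cluster 3 (19 cells). There Ier3 had 48.1 CPM in cluster 4 and 12.1 CPM in cluster 3, Fosb 20.2 and 6.58 CPM, and Egr1 8.3 and 13.3 CPM. By summed counts 2 of the 10 genes were 2-fold higher in that cluster 4 (21.3% of genes were) and 1 was 2-fold lower (8.89% of genes were). These counts are near the shares over all genes. The median log2 ratio of the 10 was -0.20, against 0.15 over all genes. Cluster 4 cells of E11.5 HE of GL53 also had fewer genes detected, a median of 5329 against 6722 in cluster 1, and the part of this in the difference was not tested.

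Among IAHC, cluster 2 stood apart gene by gene. In E11.5 GFI1+ IAHC of GL78 the median level was 8.07 in cluster 2 (15 cells) and 6.68 in cluster 0 (41 cells), and in GL53 5.21 (22 cells) and 4.95 (40 cells). In E10.5 GFI1+ IAHC of GL78 the order was the other way, with 5.10 in cluster 2 (36 cells), 5.6 in cluster 0 (12 cells) and 5.61 in cluster 1 (11 cells). Nr4a1 had 2164 CPM in cluster 2 and 412 CPM in cluster 0 of GL78, and 495 and 251.5 CPM in GL53. Zfp36 had 1060 CPM in cluster 2 and 243.6 CPM in cluster 0 of GL78, and 319.8 and 76.8 CPM in GL53. Ier3 had 535 and 82.8 CPM in GL78, and 232.3 and 30.7 CPM in GL53, again higher in cluster 2. Atf3 went the other way in both, with 21.5 CPM in cluster 2 and 280.9 CPM in cluster 0 of GL78, and 10.3 and 92.96 CPM in GL53. At E10.5 Atf3 was again lower in cluster 2, with 6.6 CPM against 107.1 CPM in cluster 0 of GL78. Fos and Jun were also lower in cluster 2 than in cluster 0 in all 3 sets, with log2 ratios of -0.89, -0.41 and -1.03 for Fos and -0.63, -0.22 and -0.20 for Jun in E11.5 of GL53, E11.5 of GL78 and E10.5 of GL78. Cluster 1 had the highest median among E11.5 GFI1+ IAHC of GL53, at 6.79 (20 cells), with 1151 CPM of Fos and 284.7 CPM of Atf3. Cluster 3 was below cluster 0 in the summed level of all 10 genes in E11.5 GFI1+ IAHC of GL53 (median log2 ratio -0.65, against -0.06 over all genes). In E10.5 GFI1+ IAHC of GL78 it was below in 9 of 10 (-0.86, against -0.05).

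**Figure D4:**
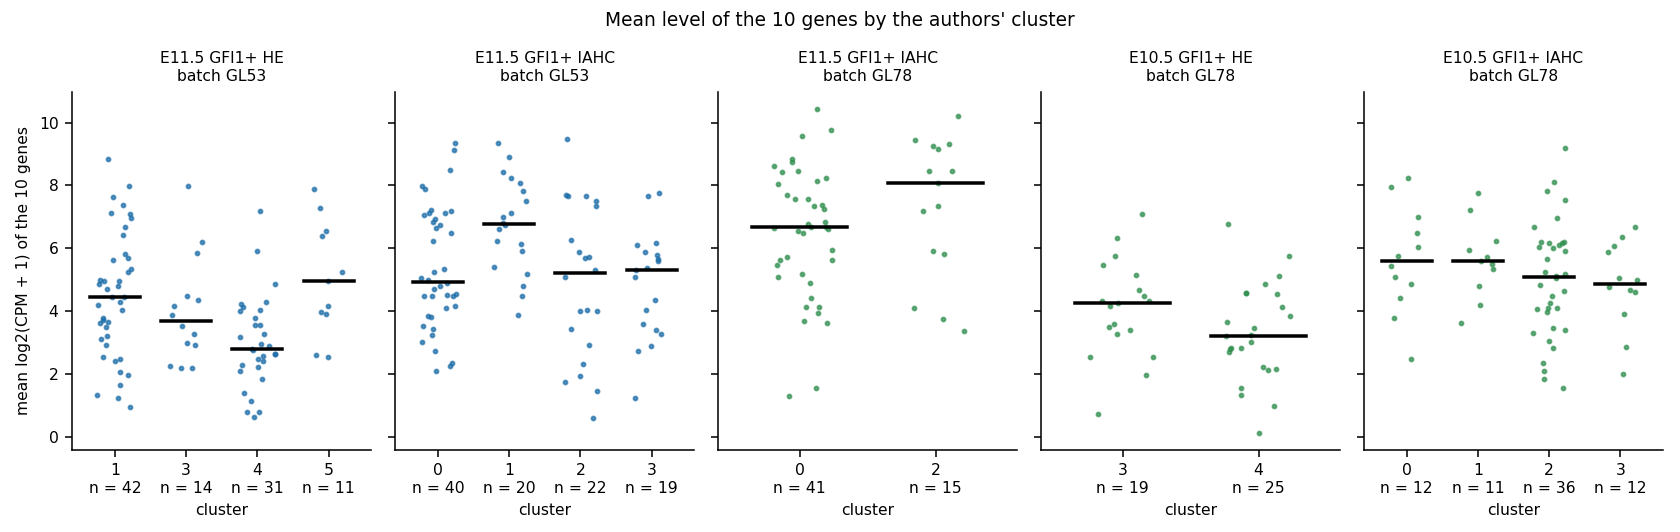
Mean level of the 10 genes in each cell (mean of log2(CPM + 1), vertical axis) by the authors' cluster in 5 combinations of population and batch, with 1 point for each cell and a black bar at the median. Cluster 4 has the lowest median of the HE clusters, 2.80 in E11.5 and 3.23 in E10.5, and cluster 2 the higher median in E11.5 GFI1+ IAHC of GL78, 8.07.

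Cells of 1 population on 1 plate share their stage, sort gate and preparation, and 10 such sets held at least 20 cells. How far the genes varied between these cells was set against genes of like level. For Fos the SD of log2(CPM + 1) was 2.40 to 4.92 over the 10 sets, above that of 87.3 to 99.6% of genes whose mean was within 2-fold of its own. In E11.5 HE of GL53 on the largest plate (all but 7 of the 110 cells), Fos had a lowest value of 0, a median of 174.2 CPM and a highest value of 4191 CPM, and the highest 10% of cells held 50.1% of its sum. In E11.5 GFI1+ IAHC of GL78 (89 cells) the lowest, median and highest values were 0, 917 and 11140 CPM. Fos was thus not detected in some cells of every such set and very high in others, with a read in 60 to 93.1% of cells, a range that thinning to 100000 counts a cell left as it was.

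Atf3 and Nr4a1 varied most against genes of like level, with medians over the sets of 97.7 and 97.97% of such genes below them. Nr4a1 had a read in 51.5 to 72.4% of cells, and its highest 10% of cells held 46.9 to 75.1% of its sum. Ier3 was the most concentrated, with 41.3 to 95.5% of its sum in the highest 10% of cells and a read in 22.4 to 68.97% of cells. At the other end, Ier2 had a read in 92 to 100% of cells and an SD above only 50.4% of genes of like level (median over the sets), and Jun had a read in 86.7 to 100% of cells. Ier2 and Jun were therefore found in almost every cell and differed in amount, whereas Fosb (38.8 to 68.97%), Egr1 (35.6 to 73.3%) and Atf3 (34.95 to 79.3%) were found in only part of the cells of a plate.

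The 15 cells taken to have 2 libraries bear on how much of this arose in sequencing. The mean level of the 10 genes differed between the libraries of a cell with an SD of 0.14, against SDs of 1.18 to 2.47 between cells of a group and batch. Of 150 pairs of values, 3 had a read in 1 library only, 2 for Atf3 and 1 for Egr1. In the cell with the most Fos, it had 2201 and 2080 CPM, and in 1 cell it was at 0 in both. The pairs were taken to share the cDNA of the cell, since r over genes of higher level was near 1. They therefore say nothing of variation in lysis and cDNA synthesis. They were also picked by an r above 0.9, so a small difference between their libraries follows in part from this choice.

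The 10 genes tended to be high in the same cells. Over the cells of a set, the median Spearman rho of the 45 pairs was 0.25 to 0.60, against -0.02 to 0.04 with all other genes of 25% detection or more. These points share a plate and library preparation, so rho is a description. The closest pair was Fos with Fosb, at a mean rho of 0.62 over the 10 sets (0.49 to 0.78), then Junb with Ier2 at 0.61 and Fos with Junb at 0.58. The AP-1 subunits of unlike families were also close, Fos with Jun at 0.51. The least close were Jun with Ier3 at 0.09 and Atf3 with Egr1 at 0.13, with negative values of this pair in some sets (lowest -0.12). Against the mean of the other 9 genes, Junb (0.71) and Fos (0.69) had the highest rho and Ier3 (0.37) and Atf3 (0.38) the lowest.

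**Figure D5:**
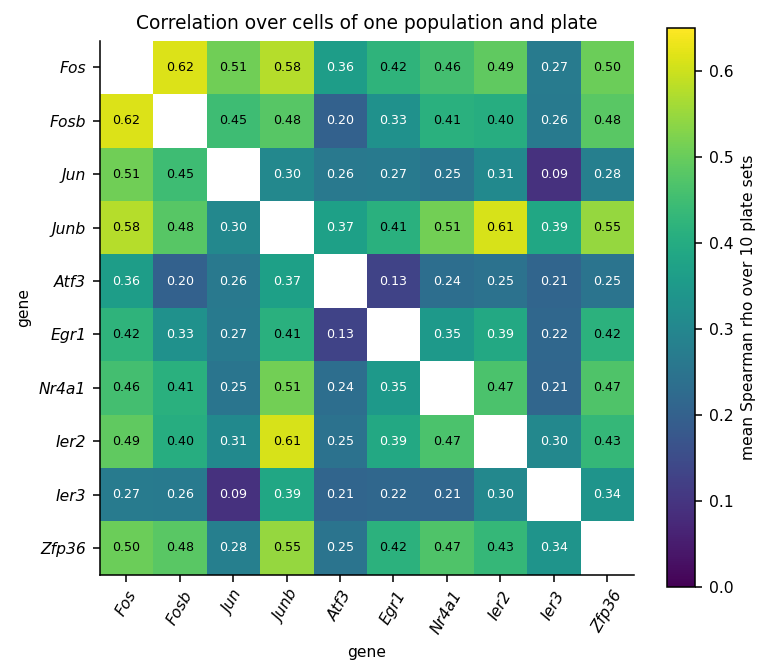
Spearman rho of log2(CPM + 1) between each pair of the 10 genes over the cells of 1 population on 1 plate, as the mean over 10 such sets, on a colour scale that starts at 0. Fos with Fosb (0.62) and Junb with Ier2 (0.61) are the highest pairs, and the columns of Atf3 and Ier3 hold the lowest values, down to 0.09.

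The genes most like them were looked for among 9337 other genes with a read in at least 25% of cells in GL53 and in GL78, by the mean rho with the mean level over the 10 sets. The median over those genes was 0.01 and the 95th percentile 0.13. The first 10 were Dusp1 (0.54), a phosphatase of MAP kinases, Socs3 (0.53), an inhibitor of cytokine signalling, Klf6 (0.48), a Krüppel-like factor, and Dusp2 (0.46), a further MAP kinase phosphatase. They went on with Btg2 (0.45), an antiproliferative gene, Ppp1r15a (0.40), a stress-induced phosphatase subunit also called GADD34, Nfkbiz (0.39), a nuclear IkappaB protein, Fosl2 (0.38), another FOS subunit, Csrnp1 (0.37) and Rel (0.37), an NF-kappaB subunit. All 10 had a positive rho in every set except Ppp1r15a, whose lowest value was -0.06. Of the lists, 9 of 12 other immediate early transcription factors and 19 of 24 other immediate early genes that could be ranked were in the first 100, with 5 of 8 ERK feedback genes, 1 of 8 CREB and ATF factors (Atf4, 0.33), 1 of 14 heat shock genes and 0 of 14 endothelial markers. The lowest rho were those of Fn1, the matrix protein fibronectin (-0.27), and Ifitm2 (-0.27), an interferon-induced membrane protein.

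Among technical measures of a cell, genes detected and the mitochondrial fraction followed the mean level in each HE set, but in some IAHC sets only. Over the E11.5 HE cells of the largest GL53 plate (all but 7 of 110), rho with the number of genes detected was 0.40, with the mitochondrial fraction -0.34 and with total counts 0.12. Over the GFI1+ IAHC of the same plate (all but 9 of those of GL53) these were 0.10, -0.25 and 0.19, and over the 89 GFI1+ IAHC of GL78 0.06, 0.05 and -0.12. In the 29 E10.5 GFI1+ IAHC of GL69 total counts gave -0.45. Over the 90 E10.5 HE cells of GL78 genes detected gave 0.24 and the mitochondrial fraction -0.30. Over 25 E11.5 HE cells of 1 GL78 plate these gave 0.32 and -0.35. The part of these measures in the surface signal values below was not tested. The column of the well, which follows the order of sorting on some instruments, gave between -0.28 and 0.17 over the 10 sets. Of the surface signals recorded at the sort, CD45, the pan-leukocyte antigen, gave 0.44 over the E11.5 HE cells of the GL53 plate. It gave 0.40 over the 90 E10.5 HE cells of GL78. Over the 6 IAHC sets with such values it lay between -0.003 (GFI1+ IAHC of that GL53 plate) and 0.49 (22 GFI1+ IAHC of GL58). The signals reach a cell through its annotated well, and in 8 of the 15 cells with repeated libraries that well differed between them, so these rho are no firmer than the well labels. CD41, the first surface mark of blood, gave 0.32 and 0.34 in the same HE sets. Signals other than blood antigens were also positive in them, with 0.24 and 0.38 for JAG1 and 0.25 and 0.28 for the GFI1 reporter. NOTCH1 gave 0.29 and 0.02, cKIT 0.20 and 0.13, and CD31 0.20 and 0.12. DLL4 gave -0.03 and 0.12, and NOTCH2 -0.08 and -0.24.

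Cell cycle phase, as the authors called it with Cyclone, gave no common direction. In GL53, all 10 genes were lower in G2M than in G1 in E11.5 GFI1+ IAHC (39 and 73 cells, median log2 ratio -0.60), but 9 of 10 were higher in G2M in E11.5 GFI1- IAHC (28 and 46 cells, 0.36). In GL58 all 10 were higher in G2M in E11.5 GFI1+ IAHC (16 and 10 cells, 1.31). In E10.5 HE of GL78, 9 of 10 were lower in G2M than in G1 (40 and 38 cells, -0.79), Atf3 being the exception. No share or median over all genes was taken by phase, so these counts have no background to stand against.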

How the data were processed

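Reads of each cell were aligned by the authors to mm10 with STAR 2.7.3, and reads per gene were counted with HTSeq 0.9.1, per the submitters' processing notes. Neither the annotation release nor the handling of duplicate reads is stated in the labels or the paper. The authors deposited raw counts, which were used for all values. They also deposited an annotation of each cell with the fluorescence intensity of the index sort, the mitochondrial fraction, the Louvain cluster and the Cyclone phase, which were used as given. Their normalized table, on a log scale, was not used. Index values of wells that the annotation gave to more than 1 kept library were left out.

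The cells the authors kept were used (775 of 860), with 1 library for each cell sequenced more than once. Counts were summed by group and batch, divided by the total of the genes (92 spike-in rows held 0 counts) and given as CPM with a 95% Poisson interval. Log2 ratios were taken within batches with at least 10 cells of both groups and a pseudocount of 1 CPM, and averaged with equal weight. The SD is over batches, which are not shown to be independent sorts. A gene was called 2-fold when it had 10 CPM in the higher group and a 2-fold ratio in every batch, and shares of genes refer to genes at that level. Shares of cells have exact binomial intervals. Because a group is 1 sample, no test was run, nor the rank test over cells of the paper. The steps were tested on simulated data. All 10 genes are named, with the 10 genes of highest mean rho and, of other lists, the 2 highest and 2 lowest. The genes and lists were chosen with earlier results of these data known. Python 3.11.15, numpy 2.4.6, pandas 2.3.3 and scipy 1.17.1 were used. Leaving out clusters 6 to 10 and other settings planned ahead are given at the end, and keeping both libraries of repeated cells and requiring 200000 counts a cell were added after seeing the data. Promoter sequences were taken from RefSeq (GRCm38.p6).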

Additional observations from a re-analysis of the deposited data

How the results depend on the processing

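No paired analysis was possible because each sample is 1 cell and no label ties cells of different groups to an embryo. No direction of a median over the 10 genes reversed under any setting run. In the E11.5 comparison of HE with GFI1+ IAHC, the count of 2-fold genes was 0 to 1 when a batch was left out, Egr1 being the 1 without GL53. At E10.5 the count was 1, Nr4a1, with the mean over cells of each cell's CPM, with cells thinned to 100000 counts and without the 3 highest cells, and 4 without clusters 6 to 10. The median there was -0.55 when thinned, -0.76 without clusters 6 to 10, -0.36 without the 3 highest cells and -0.0597 in G1 cells. In those G1 cells the median over all genes was -0.0596, so by summed counts the median of the 10 genes did not differ from it. For GFI1+ over GFI1- IAHC the count was 1 to 2 when a batch was left out, Nr4a1 joining Ier3 without GL53, and the median was 0.0011 to 0.28. With all 860 libraries that count was also 1, but it was Atf3, lower in GFI1+ IAHC, and not Ier3. For E11.5 over E10.5 HE the count was 2 with a pseudocount of 10 CPM and 1 without the 3 highest cells. For E11.5 over E10.5 GFI1+ IAHC the median was 1.499 with a pseudocount of 10 CPM, 1.62 with the mean of each cell's CPM, 1.49 with size factors, 1.69 when thinned, 1.62 without clusters 6 to 10, 1.53 without the 3 highest cells and 1.96 in G1 cells. The median share of cells with a read of a gene, over the sets of 1 plate, was 70.5% and 60.4% when thinned. The cause of these shifts was not tested. Ratios of single genes changed sign in 1 of 140, 4 of 110, 11 of 130, 7 of 130 and 0 of 110 values in the order of the comparisons above, the widest being Egr1 in E11.5 over E10.5 HE, at -0.22 as reported and 1.45 without clusters 6 to 10. G1 cells allowed GL53 and GL78 only for HE over IAHC at E11.5, and GL78 only for E11.5 over E10.5 HE. Each group is 1 sample, and the spread between sorts was not measured.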

Other observations

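Of the 85 libraries the authors left out, 61 fell into 3 combinations of group and batch with at least 10 such cells. Some of the 10 genes were higher in the left-out than in the kept cells of each of these 3. The 35 left-out E11.5 GFI1- IAHC of GL53 had 2838 CPM of Fos, 956 CPM of Atf3 and 925 CPM of Zfp36, against 923, 117.5 and 102.8 CPM in the kept cells of that group and batch. The 11 left-out E11.5 GFI1- IAHC of GL78 had 2124 CPM of Fos, 2175 CPM of Jun and 1940 CPM of Atf3, against 1558, 966 and 412 CPM in the kept cells. Ier2 was not high there, with 331.4 and 410 CPM in the left-out and 349.4 and 409.1 CPM in the kept GFI1- IAHC of GL53 and GL78, and Junb had 210.2 CPM against 196.4 CPM in GL53. In the 15 left-out E11.5 GFI1+ HE of GL53 the mean level was not high, with a median of 2.95 against 3.89 in the kept cells, and Fos had 469 CPM against 422 CPM. Zfp36 had 203.2 CPM against 73.9 CPM and Atf3 125.2 against 65.8 CPM in these HE cells, and Fosb, Egr1, Nr4a1 and Ier3 were also higher. Jun (161.8 against 399 CPM), Junb (53.1 against 158.9 CPM) and Ier2 (218.5 against 308.2 CPM) were lower. The left-out cells were shallower, with median totals of 177800 and 224100 counts in the GFI1- IAHC of GL53 and GL78 and 315300 counts in HE.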
